A study of Mus musculus with 8 samples.

Results

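The folate receptor neighbourhood is a stretch of mouse chromosome 7 that holds the folate receptor genes Folr2 and Folr1 between Inppl1 on one side and Lamtor1 on the other. Its members were the loci of the authors' merged annotation (build mm9) with a protein-coding reference transcript lying inside a window of 130 kb, and they spanned chr7:108966827-109082410. The rule found 6 merged loci of 31020 in the series, with 59 isoforms of 89208. These loci held 8 coding genes, in order along the chromosome Phox2a, Inppl1, Folr2, Folr1, Anapc15, Tomt, Lamtor1 and Lrrc51. Inppl1 and Folr2 had been joined into 1 locus, and so had Tomt and Lrrc51. The window was chosen by the lower read counts of its loci with IL-4 and by their FPKM (fragments scaled to transcript length and sequencing depth), so every value of the IL-4 contrast for its members is a description and carries no test.

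The RNA came from bone marrow-derived macrophages, cells grown in culture from bone marrow, of C57BL/6 mice. In the treated group, 4 libraries were from macrophages given IL-4 (interleukin-4, made by T helper cells and others in allergy and worm infection), and the other 4 were from untreated macrophages. The labels give no dose, no time and no word on whether each library came from its own animal. According to the series text, the samples within a group are biological replicates. Libraries were made from total RNA depleted of ribosomal RNA, so unspliced RNA could enter them, and the protocol text names no step that marks the strand.

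Folate receptors are membrane-anchored proteins that bind folate outside the cell and carry it in by endocytosis. Folr2 encodes folate receptor beta, known from macrophages, and Folr1 encodes folate receptor alpha, known from epithelia. Inppl1 encodes the lipid phosphatase SHIP2, which acts on the phosphoinositide made by phosphoinositide kinases after receptor signals. IL-4 acts through the transcription factor STAT6 and brings macrophages to what is called alternative activation.

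Total counts ran from 23969227 to 27783417 in IL-4 libraries and from 23071022 to 26682884 in untreated ones. The labelled cell type was checked against its markers. Adgre1, the F4/80 antigen of macrophages, had 1654 ± 291 CPM (read counts scaled to library size) with IL-4 and 4584 ± 366 CPM untreated (SD, n = 4 each). Arg1, an enzyme induced by IL-4, had 77.2 ± 14.1 CPM in IL-4 libraries and 1.01 ± 0.25 CPM in untreated ones. Of 8 macrophage markers listed, 6 were matched and 4 had a locus of their own. By edgeR 3 of the 4 fell, where 26.2% of all tested loci fell. The sum of the 4 was 1496 to 2137 CPM with IL-4 and 4947 to 6001 CPM untreated. Csf1r did not pass, but its locus shared 80.8% of its exonic bases with another locus. It had 13 to 44 counts per library, so its count may leave out most reads of the gene. Itgam, joined with Itgad and Itgax in 1 locus, was higher, at 3359 ± 543 CPM with IL-4 and 1330 ± 95.8 CPM untreated (log2 1.44). Lyz2, joined with Lyz1, was lower (log2 -1.04). Summed markers of B cells, T cells, erythroid cells, fibroblasts and dendritic cells, over genes with a locus of their own, did not pass 0.26 CPM in any library. Neutrophil markers summed to 6.05 to 7.14 CPM with IL-4 and 3.47 to 7.46 CPM untreated. Of the 3 mast cell markers listed, 2 were matched, and their sum was 0.18 to 0.348 CPM with IL-4 and 6.05 to 12.1 CPM untreated, nearly all of it from Kit, with Mcpt4 at or near 0. The part of these shifts in macrophage and mast cell markers in the results was not tested. In bulk RNA, fewer cells of a type and less RNA per cell cannot be told apart. Counts on the Y chromosome were 5525 in IL-4 replicate 4 and 5808 in untreated replicate 4, and 0 to 7 in the other 6 libraries, so results were also computed without both replicate 4 libraries.

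Promoter sequences, credited to RefSeq (build GRCm38.p6), are shown for start sites that carried most of the FPKM of Folr2, Inppl1 and Lamtor1, for the far start of Folr2 and for the near start of Anapc15. Each runs from 250 bases before to 50 after the start, 5′ to 3′ on the gene's strand, and 7 of the 8 genes had an entry. Capitals mark the motif letters found on either strand, from TGANTCA (AP-1), GAGGAA (PU.1), TTC and GAA with 4 free bases between (STAT6), GAAA and GAAA with 2 free bases between (ISRE) and GGGCGG (GC box). Among 32851 promoters of this length in the table, 7.81% held the AP-1 letters, 28.3% the PU.1 letters, 6.95% the STAT6 letters, 3.44% the ISRE letters and 35.7% the GC box letters. A match is a string of letters and shows no binding.
Folr2 near start (chr7:101845282-101845581, minus strand): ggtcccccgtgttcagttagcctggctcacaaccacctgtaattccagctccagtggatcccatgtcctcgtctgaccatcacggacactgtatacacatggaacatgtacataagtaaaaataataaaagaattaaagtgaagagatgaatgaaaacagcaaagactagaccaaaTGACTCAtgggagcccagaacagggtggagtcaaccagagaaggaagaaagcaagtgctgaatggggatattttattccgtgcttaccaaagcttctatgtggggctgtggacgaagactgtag
Folr2 far start (chr7:101857141-101857440, minus strand): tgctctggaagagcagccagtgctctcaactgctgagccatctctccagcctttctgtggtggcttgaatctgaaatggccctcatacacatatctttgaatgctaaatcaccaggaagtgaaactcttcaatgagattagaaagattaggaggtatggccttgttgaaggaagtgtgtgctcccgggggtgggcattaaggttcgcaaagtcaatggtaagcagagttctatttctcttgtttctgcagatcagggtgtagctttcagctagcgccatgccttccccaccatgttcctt
Inppl1 main start (chr7:101837775-101838074, minus strand): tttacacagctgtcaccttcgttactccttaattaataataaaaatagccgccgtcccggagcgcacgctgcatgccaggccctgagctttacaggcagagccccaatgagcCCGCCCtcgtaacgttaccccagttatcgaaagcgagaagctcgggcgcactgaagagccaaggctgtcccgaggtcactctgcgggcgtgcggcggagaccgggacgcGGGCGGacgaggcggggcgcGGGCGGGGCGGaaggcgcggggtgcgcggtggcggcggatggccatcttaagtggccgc
Anapc15 near start (chr7:101896081-101896380, plus strand): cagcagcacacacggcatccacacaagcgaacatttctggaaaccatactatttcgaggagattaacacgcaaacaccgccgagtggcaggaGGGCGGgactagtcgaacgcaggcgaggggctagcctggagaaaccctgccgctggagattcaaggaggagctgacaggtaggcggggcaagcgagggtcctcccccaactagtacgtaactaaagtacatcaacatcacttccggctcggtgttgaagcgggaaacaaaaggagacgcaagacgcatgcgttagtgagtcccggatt
Lamtor1 start (chr7:101905587-101905886, plus strand): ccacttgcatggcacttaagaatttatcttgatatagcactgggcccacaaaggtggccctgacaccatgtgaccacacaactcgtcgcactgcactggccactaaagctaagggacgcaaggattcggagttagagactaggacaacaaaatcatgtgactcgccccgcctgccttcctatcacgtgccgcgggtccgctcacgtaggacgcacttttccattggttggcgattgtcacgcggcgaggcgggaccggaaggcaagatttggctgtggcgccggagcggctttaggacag
The near promoter of Folr2 held the AP-1 letters once and none of the other motifs, and its far promoter held none of the 5. The Inppl1 promoter had 4 GC boxes, of which a pair next to each other share letters, and that of the near Anapc15 start had 1. The Lamtor1 promoter held none. Among entries not shown, that of Tomt at chr7:101906310-101906609 (minus strand) held the STAT6 letters at 1 place and the PU.1 letters at 2. Those of Phox2a and of the other Inppl1 start had 4 GC boxes each, and the rest held none of the motifs. GC content was 45.3% at the near and 47.7% at the far Folr2 start, 64.7% at Inppl1, 55.7% at Anapc15 and 56.3% at Lamtor1, where the median of all promoters was 52.7%.

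The loci of the window overlap each other heavily, and this bears on every count. The authors' merged annotation holds long assembled isoforms that run across a neighbour on the other strand. An isoform that starts at Phox2a has an exon of 16237 nucleotides (nt) that lies over nearly all of Inppl1, so that 55 of the 5152 reference exonic nt of Inppl1, or 1.07%, lay outside another locus. All 1320 reference exonic nt of Folr2 and 94.4% of those of Folr1 were free of other loci. For Phox2a the share was 77.6%, for Tomt 9.23% and for Lrrc51 8.46%. Anapc15 and Lamtor1 had 0% of their reference exonic nt to themselves. Per locus, 68.3% of exonic nt of the Inppl1–Folr2 locus were shared with another locus, 20.1% of the Folr1 locus and 91.5% of the Anapc15 locus.

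**Figure D1:**
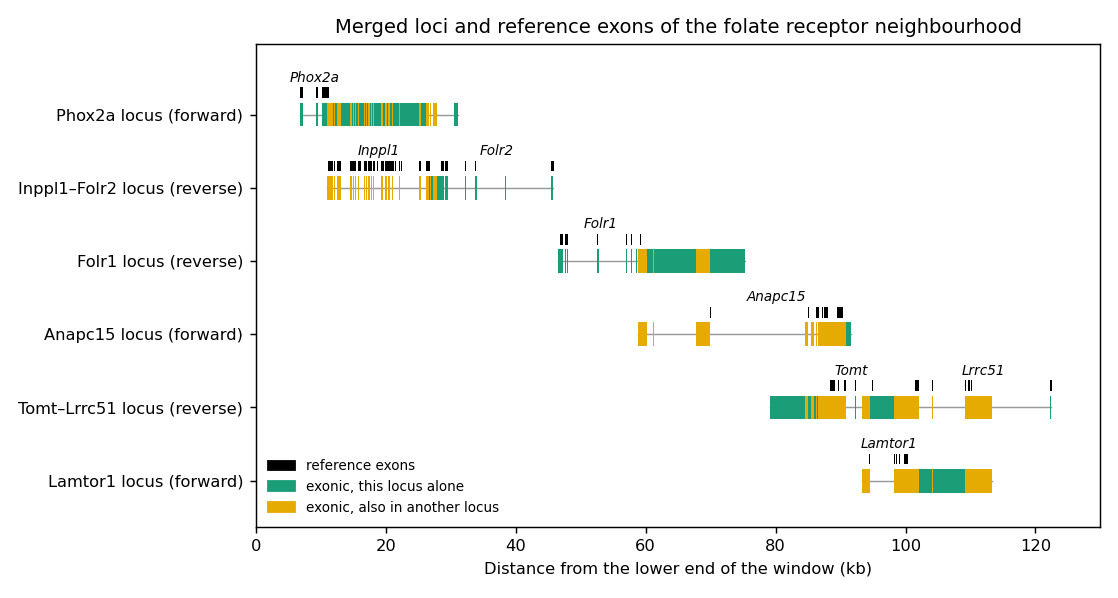
Exons of the 6 merged loci against the distance in kb from the lower end of the window. Black marks are reference exons with the gene's name, green marks are exonic bases of that locus alone and yellow marks are exonic bases also held by another locus. Folr2 lies in green, while Anapc15 and Lamtor1 lie in yellow throughout.

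What the counts hold was read from the fragments that FPKM and isoform length imply. FPKM are the authors' estimates per isoform. Among 5858 loci that share no base, the count was between 77.2% and 106.8% of the implied number from the 5th to the 95th percentile, scaled so that the median was 100. The count of the Folr1 locus was 81.7 ± 3.74% of the implied number with IL-4 and 80.1 ± 2.60% untreated (SD, n = 4 each, as below). It was 61.3 ± 0.933% and 63.0 ± 3.19% at the Phox2a locus, and 49.6 ± 1.87% and 53.4 ± 2.16% at the Tomt–Lrrc51 locus, IL-4 first in both. The Inppl1–Folr2 locus stood at 13.9 ± 5.74% with IL-4 and 37.3 ± 5.60% untreated, the only one of the 6 loci whose share differed by over 1.5 times between the groups. The Lamtor1 locus reached 5.61 ± 0.489% with IL-4 and 5.27 ± 0.719% untreated, and the Anapc15 locus 0.235 ± 0.273% and 0.204 ± 0.101%. Counts of those last loci therefore leave out most of their genes' fragments, and FPKM was used for these genes.

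In counts, 5 of the 6 loci had enough reads for the fit across all loci. Of these, 4 were called lower with IL-4 and 0 higher, each by at least 2-fold and with no overlap between the groups. Over all 13761 loci tested, 51.8% were called in either direction and 26.2% lower by edgeR's quasi-likelihood test (adjusted p under 0.05), 8.04% were called lower by at least 2-fold, and 31.5% had every IL-4 library under every untreated library. The median log2 fold change (IL-4 over untreated) was -1.33 over the 5 loci and -0.02 over all loci tested. Because the window was chosen for these values, nothing is read from the counts of members.

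The Inppl1–Folr2 locus (XLOC_025890, minus strand) had 21.2, 13.5, 9.35 and 28.5 CPM in IL-4 replicates 1 to 4, against 130.7, 157, 145.3 and 199.7 CPM in the untreated replicates 1 to 4. The highest IL-4 library lay far below the lowest untreated one, and replicate 4 was the highest in both groups. The log2 fold change was -3.01 (SE 0.29), with an untreated mean 8.72 times the IL-4 mean. Of the bases that this locus has to itself, 46.3% were reference exons of Folr2, 1.93% were of Inppl1 and 51.7% lay outside reference exons. The coefficient of variation between libraries was 46.7% with IL-4, where 2.96% of all tested loci had a higher one, and 18.8% untreated, where 26.5% had.

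The Folr1 locus (XLOC_025891, minus strand) had 4.92, 3.06, 3.17 and 3.85 CPM with IL-4, against 30.4, 30.6, 30.6 and 31.8 CPM untreated. The untreated libraries lay close together, and all 4 IL-4 libraries were well below them. The log2 fold change was -2.93 (SE 0.13). Of the bases this locus has to itself, 91.3% lay outside the reference exons of Folr1.

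The Phox2a locus (XLOC_024665, plus strand) had 9.10, 7.49, 7.59 and 7.95 CPM with IL-4, against 22.1, 21.6, 21.5 and 21.4 CPM untreated, a log2 fold change of -1.33 (SE 0.08). Phox2a encodes a homeobox transcription factor of autonomic neurons, but 89.9% of the bases that the locus has to itself lay outside its reference exons. The Tomt–Lrrc51 locus (XLOC_025892, minus strand) had 9.37, 7.67, 8.80 and 9.21 CPM with IL-4, against 19.9, 19.6, 20.9 and 17.5 CPM untreated (log2 -1.04, SE 0.09), with 97.8% of its own bases outside reference exons. Neither locus had an IL-4 library that reached an untreated one.

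The Lamtor1 locus (XLOC_024667, plus strand) had 5.57, 5.47, 6.38 and 5.62 CPM with IL-4, against 5.89, 6.52, 7.89 and 5.43 CPM untreated, and the groups overlapped. Its log2 fold change of -0.05 (SE 0.12) was not called, and it was 0.04 without untreated replicate 3. The Anapc15 locus (XLOC_024666, plus strand) was counted 3, 0, 2 and 0 times with IL-4 and 3, 7, 3 and 2 times untreated, too few for the fit.

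**Figure D2:**
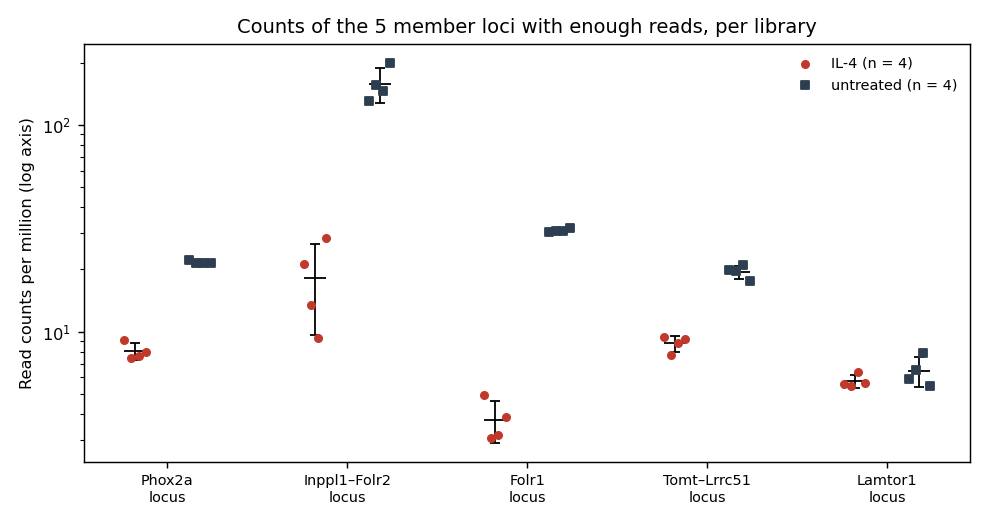
CPM (log axis) of the 5 member loci with enough reads, with IL-4 libraries as red circles and untreated ones as blue squares, and bars at the mean ± SD of 4 libraries. The groups stand apart at the Phox2a, Inppl1–Folr2, Folr1 and Tomt–Lrrc51 loci and overlap at the Lamtor1 locus.

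In FPKM, 12 of the 59 isoforms passed the filter of at least 1 FPKM in at least 4 libraries, a filter that isoforms high in only 1 group pass through that group. Of these 12, 11 were called lower with IL-4 and 1 higher, 9 of them lower by at least 2-fold. By limma on log2(FPKM + 0.1), 38.4% of the 17500 isoforms tested were called in either direction, 18.5% lower, 19.8% higher and 6.1% lower by at least 2-fold. In 9 of the 12, no IL-4 library reached an untreated one, where the share over all tested isoforms was 19%. The median log2 fold change was -1.70 over the 12 isoforms and 0.00 over all tested. With any 1 untreated library left out, 8 isoforms passed the filter and 5 or 6 were called lower. Under 0.001 FPKM in every library were 8 of the 59 isoforms.

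The order of the genes by summed FPKM differed between the groups. With IL-4 it was Lamtor1 (50.4 ± 3.36 FPKM), Inppl1 (15.0 ± 1.795), Folr2 (11.7 ± 6.06), Anapc15 (8.95 ± 1.20), Lrrc51 (1.73 ± 0.357), Folr1 (0.802 ± 0.162), Phox2a (0.469 ± 0.0439) and Tomt (0.128 ± 0.0393). Untreated it was Folr2 (97.5 ± 17.9 FPKM), Lamtor1 (57.3 ± 1.99), Inppl1 (32.6 ± 3.90), Anapc15 (20.6 ± 1.27), Folr1 (2.24 ± 0.265), Lrrc51 (1.802 ± 0.197), Phox2a (1.19 ± 0.0357) and Tomt (0.612 ± 0.0960), all as SD of n = 4. With IL-4, Inppl1 and Folr2 overlapped in their ranges, as did Folr2 and Anapc15, and no other neighbours did. In the untreated group, no neighbouring genes in the order overlapped except Folr1 and Lrrc51. The sums take in assembled isoforms, which held nearly all of the Phox2a and Tomt sums in both groups. Of the untreated Folr1 sum, assembled isoforms held 1.44 ± 0.136 FPKM and reference isoforms 0.808 ± 0.374 FPKM.

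**Figure D3:**
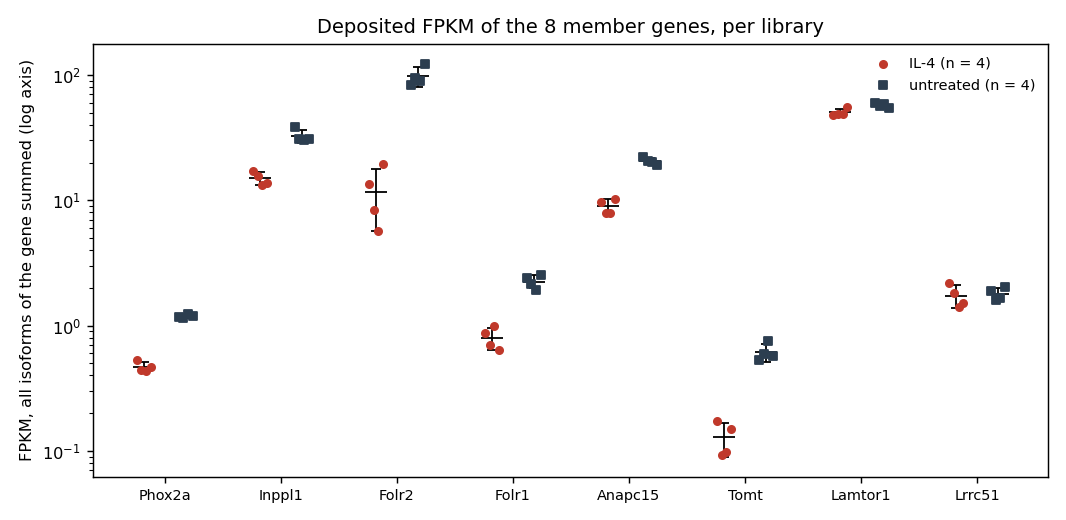
Deposited FPKM summed over all isoforms of each of the 8 genes (log axis), with IL-4 libraries as red circles, untreated ones as blue squares and bars at the mean ± SD of 4 libraries. Folr2 shows the widest gap between the groups on the log axis, while Lrrc51 and Lamtor1 overlap.

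Folr2 was the highest gene of the window in untreated macrophages. Its leading isoform (TCONS_00074896, 5 exons, 1067 nt, chr7:108988502-108993831, minus strand) has the reference structure and begins at the near promoter shown above. It had 11.1, 7.34, 4.16 and 17.4 FPKM in IL-4 replicates 1 to 4, against 74.2, 85.0, 80.0 and 110.0 FPKM untreated. Every IL-4 library lay under every untreated one, and within the IL-4 group replicate 4 had over 4 times the value of replicate 3. The log2 fold change was -3.28 (SE 0.38).

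Folr2 also had isoforms with starts farther upstream, all assembled except TCONS_00074897, which has the reference structure and begins at the far starts. That with a start in between (TCONS_00074893) had 1.41, 0.688, 1.19 and 1.07 FPKM with IL-4, against 3.90, 5.50, 4.56 and 7.17 FPKM untreated (log2 -2.18, SE 0.24; -1.57 with 1 FPKM added). The 3 isoforms from the far starts summed to 0.622 ± 0.333 FPKM with IL-4 and 4.95 ± 0.712 FPKM untreated. Of these, TCONS_00074895 averaged 0.580 ± 0.298 FPKM with IL-4 and 4.48 ± 0.868 FPKM untreated (log2 -2.84, SE 0.32). The near start held 83.4 ± 7.01% of Folr2 FPKM with IL-4 and 89.5 ± 0.414% untreated, and the far starts 5.26 ± 0.892% and 5.11 ± 0.284%. All 3 sets of starts were thus lower with IL-4 with no overlap between the groups, and the share of the far starts differed by less than the spread between libraries.

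Inppl1, read through FPKM, was lower by a smaller factor than Folr2. Its leading isoform (TCONS_00074890, 29 exons, 4758 nt, chr7:108971146-108986338, minus strand) had 12.1, 12.8, 10.5 and 11.9 FPKM with IL-4, against 30.9, 24.3, 23.6 and 24.5 FPKM untreated (log2 -1.12, SE 0.10). The groups did not overlap, and untreated replicate 1 stood above its group. A second reference isoform (TCONS_00074892) averaged 1.85 ± 0.737 FPKM with IL-4 and 3.70 ± 1.20 FPKM untreated (log2 -0.98, SE 0.30), and its call was lost without IL-4 replicate 2, 3 or 4 and without untreated replicate 1, 2 or 4 (log2 -0.80 to -1.01). Another reference isoform (TCONS_00074891, not tested) averaged 0.841 ± 0.586 FPKM with IL-4 and 1.68 ± 0.858 FPKM untreated, and the groups overlapped. An assembled isoform of 35 exons spanned Inppl1 and Folr2 and had 0.0818 ± 0.0361 FPKM with IL-4 and 0.463 ± 0.0584 FPKM untreated. The joined locus therefore set Inppl1 at -3.01 by counts, where its summed FPKM gave -1.12 and that of Folr2 -3.05 (log2 of group means with 0.1 FPKM added).

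Folr1 was low in every library. Its 4 reference isoforms together had 0.474, 0.521, 0.839 and 0.442 FPKM with IL-4, against 0.923, 0.553, 0.470 and 1.28 FPKM untreated, and the groups overlapped. The reads of the locus lay mostly in an assembled isoform (TCONS_00074901) with an exon of 16153 nt upstream of Folr1. It had 0.152, 0.094, 0.096 and 0.147 FPKM with IL-4, against 1.04, 1.18, 1.16 and 1.25 FPKM untreated (log2 -2.51, SE 0.26; -3.17 with 0.01 and -0.94 with 1 FPKM added), and it held 72.9% of the fragments implied for the locus with IL-4 and 86.5% untreated. The bases behind the count of the Folr1 locus thus lay mostly outside the annotated gene, whose own isoforms overlapped between the groups.

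Phox2a followed the same form. Its reference isoform was under 0.001 FPKM in every library. The isoform with the long exon over Inppl1 (TCONS_00071334) had 0.531, 0.442, 0.434 and 0.469 FPKM with IL-4, against 1.16, 1.16, 1.23 and 1.20 FPKM untreated (log2 -1.18, SE 0.17; -0.57 with 1 FPKM added). It held 98.2% of the fragments implied for the locus with IL-4 and 99.0% untreated. Without a strand mark, reads in its exon cannot be told from unspliced RNA of Inppl1.

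Anapc15, a subunit of the anaphase-promoting complex that marks cell cycle proteins for breakdown, had too few counts to compare, and its FPKM differed by start site. A set of 3 isoforms starts 14.7 kb or more upstream of the other 9. The upstream starts had 1.36, 1.53, 0.236 and 2.67 FPKM with IL-4, against 13.8, 14.0, 12.8 and 14.0 FPKM untreated. The near starts had 8.28, 6.41, 7.70 and 7.62 FPKM with IL-4, against 8.41, 6.74, 7.33 and 5.20 FPKM untreated. The upstream sum was lower in all 4 IL-4 libraries with no overlap, while the near sum overlapped between the groups. The upstream share of Anapc15 FPKM was 14.1%, 19.3%, 2.98% and 25.9% with IL-4, against 62.1%, 67.5%, 63.7% and 72.9% untreated.

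**Figure D4:**
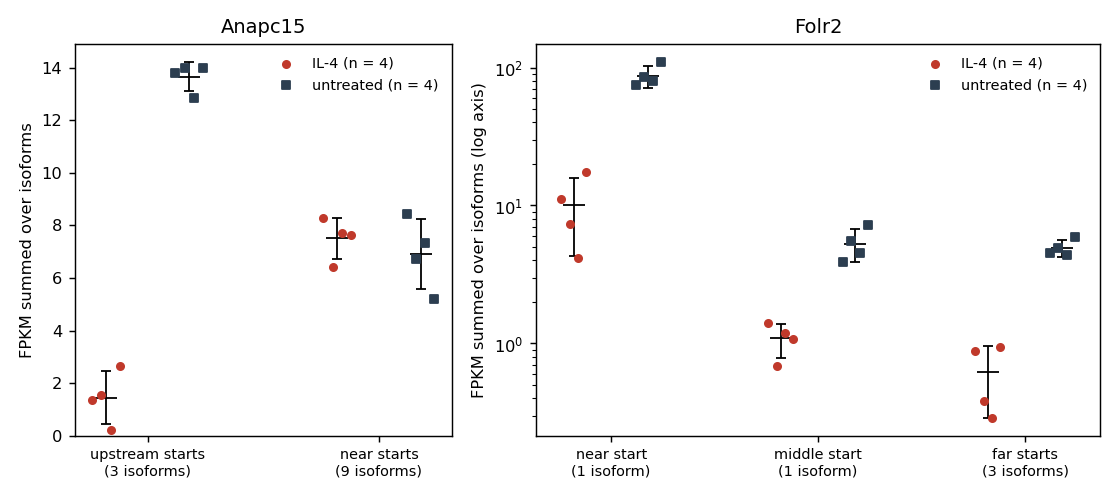
FPKM summed by start site for Anapc15 (left, linear axis) and Folr2 (right, log axis), with IL-4 libraries as red circles, untreated ones as blue squares and bars at the mean ± SD of 4 libraries. For Anapc15 the upstream starts separate the groups and the near starts do not; for Folr2 all 3 sets of starts do.

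The leading upstream isoform of Anapc15 (TCONS_00071339) averaged 1.15 ± 0.949 FPKM with IL-4 and 10.4 ± 0.643 FPKM untreated (log2 -3.75, SE 0.86). The log2 fold change was -2.76 without IL-4 replicate 3, -4.64 with 0.01 FPKM added in place of 0.1 and -2.53 with 1 FPKM added. An assembled upstream isoform (TCONS_00071337) averaged 0.114 ± 0.182 FPKM with IL-4 and 2.77 ± 0.558 FPKM untreated (log2 -4.04, SE 0.49; -5.70 with 0.01 and -1.76 with 1 FPKM added). Of the fragments implied for the locus, this isoform held 6.32% with IL-4 and 49.5% untreated, against 6.98% and 19.5% for the leading one. The near isoform TCONS_00071342 keeps an intron of 156 nt that TCONS_00071339 splices out. Against the leading near isoforms, the only bases that TCONS_00071339 has to itself are its first exon of 78 nt. That exon lies whole inside the long upstream exon of the Folr1 locus on the other strand. The assembled upstream isoforms have longer exons there, and all upstream exons of the Anapc15 locus lie in the 3678 nt that it shares with the Folr1 locus. The start of the long Folr1 isoform lay 5.44 kb from this upstream start, and both were lower with IL-4.

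The near start of Anapc15 had isoforms that differed in opposite directions. TCONS_00071343, with 6 exons, was the member isoform called higher, at 4.31, 2.94, 4.55 and 3.96 FPKM with IL-4, against 0.017, 0.112, 1.505 and under 0.001 FPKM untreated (log2 3.99, SE 0.80). The log2 fold change was 4.88 without untreated replicate 3, 5.54 with 0.01 FPKM added and 1.92 with 1 FPKM added. TCONS_00071342 keeps an intron of 156 nt (chr7:109047552-109047707) that the other splices out. It had 2.80, 2.00, 2.12 and 2.57 FPKM with IL-4, against 7.46, 5.90, 5.21 and 4.32 FPKM untreated (log2 -1.22, SE 0.18). These isoforms share nearly all other bases, and neither overlapped between the groups. TCONS_00071343 had 0 nt outside TCONS_00071342 and the upstream TCONS_00071339, which was lower with IL-4. Its FPKM therefore depend on how reads on shared bases were divided among isoforms, which was not tested.

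Lamtor1 encodes the protein that anchors the Ragulator complex, and with it mTORC1 signalling, to the lysosome. Its reference isoform (TCONS_00071350) had 47.7, 48.2, 48.6 and 54.8 FPKM with IL-4, against 59.0, 56.1, 57.5 and 54.4 FPKM untreated. IL-4 replicate 4 overlapped the untreated group, and the log2 fold change was -0.19 (SE 0.06). It was called lower without the replicate number as a block and not with it, at the same fold change, and it was lost without IL-4 replicate 1, 2 or 3 and without untreated replicate 1, 2 or 3 (log2 -0.17 to -0.19).

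Tomt encodes a methyltransferase known from hair cells of the inner ear, and its reference isoforms summed to 0.0105 ± 0.0209 FPKM with IL-4 and 0.00974 ± 0.0195 FPKM untreated. An assembled isoform with an exon of 11714 nt (TCONS_00074907), which covers Anapc15, had 0.080 ± 0.056 FPKM with IL-4 and 0.603 ± 0.077 FPKM untreated. Isoforms grouped with Lrrc51, a leucine-rich repeat gene, summed to 2.20, 1.82, 1.40 and 1.51 FPKM with IL-4, against 1.90, 1.61, 1.67 and 2.03 FPKM untreated, which overlapped. Most of this sum came from isoforms of 9078 to 13242 nt (TCONS_00074911 to TCONS_00074917) that also cover exons of Tomt. Isoforms over Lrrc51 alone were not tested. Of these, TCONS_00074918 averaged 0.351 ± 0.426 FPKM with IL-4 and 0.0971 ± 0.194 untreated. TCONS_00074920 had 0.189 ± 0.219 and 0.0646 ± 0.0766, and TCONS_00074921 had 0.185 ± 0.175 and under 0.001, IL-4 first. The lower counts of the Tomt–Lrrc51 locus were thus not seen in the summed FPKM of Lrrc51, where long and short isoforms weigh the same. A long isoform grouped with Lrrc51 (TCONS_00074911, 9212 nt, not tested) had 1.02, 0.336, 1.24 and 0.237 FPKM untreated, and at most 0.00122 with IL-4. It held 28.4% of the fragments implied for the locus untreated and 0.0282% with IL-4. Other isoforms went the other way, such as TCONS_00074917 with 17.1% untreated and 43.6% with IL-4.

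The coding loci next to the window were compared as well. Clpb, a mitochondrial chaperone gene below it, had 33.6, 29.6, 27.2 and 30.8 CPM with IL-4, against 34.3, 26.5, 25.05 and 28.2 CPM untreated (log2 0.19, SE 0.11). Numa1, a spindle pole gene that begins just inside the upper edge and ends beyond it, had 38.1, 36.8, 36.9 and 35.8 CPM with IL-4, against 51.5, 46.7, 52.6 and 45.0 CPM untreated (log2 -0.30, SE 0.06). Numa1 was called lower, and 74.7% of the exonic nt of its locus were shared with another locus, against 0% for Clpb. The next tested loci above Numa1, Il18bp (log2 -0.27, SE 0.05) and the joined Trpc2–Xndc1 locus (log2 -0.26, SE 0.09), were also called lower. Nup98 beyond them was not (log2 -0.05, SE 0.07). The next tested locus below Clpb, Pde2a, was called higher (log2 0.60, SE 0.12). Within 1 Mb of the window on both sides lay 49 other coding loci, of which 18 were tested. By edgeR, 8 of these were called lower and 3 higher, and 2 were lower by at least 2-fold, where the shares over all tested loci were 26.2%, 25.6% and 8.04%. Their log2 fold changes ran from -1.27 to 1.40 with a median of -0.23.

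**Figure D5:**
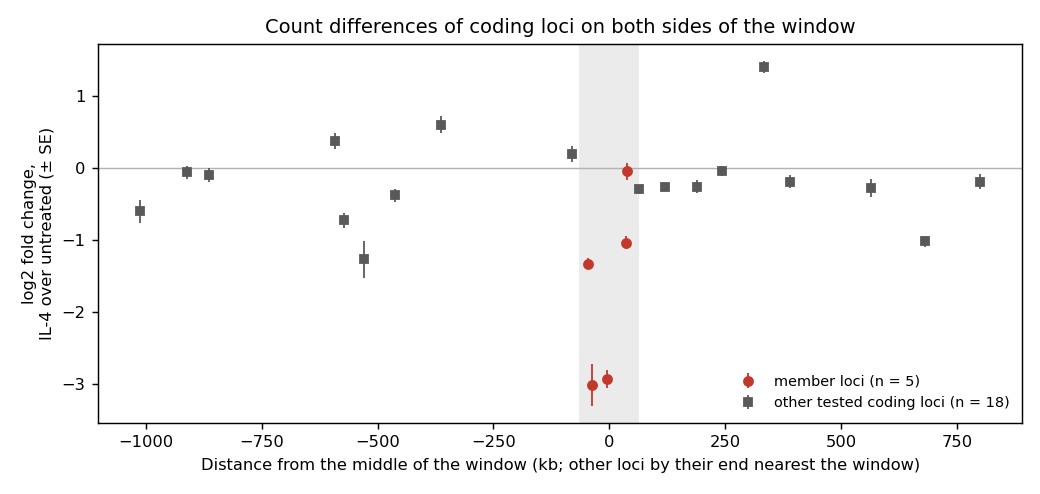
Log2 fold change of counts (IL-4 over untreated, ± SE) of the 5 tested member loci (red circles, by their middle) and 18 other tested coding loci within 1 Mb (grey squares, by their end nearest the window) against the distance from the middle of the window, which is shaded. The Inppl1–Folr2 and Folr1 loci lie near -3, and the others outside run from -1.27 to 1.40; Numa1, which reaches into the window, is drawn at its edge.

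By Pearson's r of log2(CPM + 0.5) over the 8 libraries, the loci most like the Inppl1–Folr2 locus were Nadk2 (r 0.997), Gpr183 (0.996) and Pgm2l1 (0.995). Gpr183 had 9.75 ± 2.05 CPM with IL-4 and 27.9 ± 1.72 CPM untreated. Most like the Folr1 locus were a locus on chromosome 11 with no matched gene name (0.999), Pcp4l1 (0.998) and Fgd2 (0.998). Pcp4l1 had 3.33 ± 1.42 CPM with IL-4 and 150.2 ± 7.57 CPM untreated. With libraries in 2 separated groups, such values mostly show the gap between the groups.

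Genes of folate uptake and one-carbon metabolism outside the window went both ways. Of 28 listed, 25 were matched, 21 had a locus of their own outside the window and 19 were tested. By edgeR 6 fell, 4 rose and 9 did not pass, with a median log2 fold change of -0.07, where 26.2% of all tested loci fell and 25.6% rose. Slc46a1, the proton-coupled folate transporter, fell (5.83 ± 0.150 CPM with IL-4, 8.81 ± 0.728 CPM untreated; log2 -0.49, adjusted p = 0.00112). Mthfd2l, Mthfs and Gldc fell by 0.42, 0.27 and 0.43 on the log2 scale. The call of Mthfd2l was lost without IL-4 replicate 2 or 3 (log2 -0.35 and -0.34), and that of Mthfs without IL-4 replicate 1, 2 or 4 or untreated replicate 2, 3 or 4 (log2 -0.21 to -0.28).

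The folate genes that rose were led by Mthfd2, a mitochondrial enzyme of the pathway, with 149.6 ± 18.2 CPM with IL-4 and 44.6 ± 3.87 CPM untreated (log2 1.85, SE 0.10, adjusted p = 7.92e-08). Atic, of purine synthesis, had 140.2 ± 6.17 CPM with IL-4 and 86.0 ± 6.60 CPM untreated (log2 0.81, adjusted p = 1.84e-06). Shmt2, mitochondrial serine hydroxymethyltransferase, rose by 0.74 and Aldh1l2 by 0.71. Slc19a1, the reduced folate carrier, had 8.55 ± 1.14 CPM with IL-4 and 9.14 ± 0.447 CPM untreated and did not pass the test.

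Of 16 phosphoinositide phosphatase genes listed, Inppl1 among them, 14 were matched and 11 had a tested locus of their own outside the window. By edgeR 4 fell, 6 rose and 1 did not pass, with a median log2 fold change of 0.21, where 26.2% of all tested loci fell and 25.6% rose. Inpp5d, which encodes the related phosphatase SHIP1 of blood cells, fell to 159.3 ± 4.43 CPM with IL-4, against 282.1 ± 23.4 CPM untreated (log2 -0.72, SE 0.07, adjusted p = 9.38e-06). Inpp5a, which acts on soluble inositol phosphates, rose to 35.0 ± 5.75 CPM with IL-4, against 7.63 ± 0.157 CPM untreated (log2 2.30, SE 0.12, adjusted p = 6.16e-08). Inpp5j rose by 1.45, Inpp5f by 0.86 and Mtm1 by 0.51. Without IL-4 replicate 1 or 3, 2 of the phosphatase genes were called lower.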

How the data were processed

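RNA of 4 IL-4-treated and 4 untreated macrophage samples was analysed from files the authors deposited. These held whole-number read counts per merged locus and, per the file headers, FPKM per isoform. The submitters' processing notes name the mm9 build, the aligner TopHat2 2.0.9, the assembler Cufflinks 2.1.1, the counter HTSeq and CASAVA 1.8.2. For strand and for reads on more than 1 locus the settings were not given in the sources used here. Of the value columns, 0 could not be tied to a library. Total counts of 23071022 to 27783417 per library limit precision at low loci, and the depth behind a single FPKM is unknown.

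The files carry no gene symbols. Genes were named where the span of a reference transcript, or one end of it, and its distances to at least 2 anchors within 2 Mb matched RefSeq's gene table (GRCm38.p6) within 20 nt. Strand, which was not used, was the same for 99.87% of 6366 span matches and 99.62% of 10485 one-end matches. No coordinates were converted.

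Counts were fitted over all loci with edgeR 4.0.16 in R 4.3.3 (TMM factors, default filter, quasi-likelihood test) and log2(FPKM + 0.1) with limma 3.58.1, both two-sided, calling a Benjamini-Hochberg adjusted p under 0.05. CPM are counts scaled to the total count of the library, while fold changes also use the TMM factors, so a ratio of CPM can differ a little from the fold change beside it. Both fits were tested on simulated data. Alternatives included DESeq2 1.42.0. Tables and figures used Python 3.11.15 and matplotlib 3.10.9.

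Same-numbered libraries deviated together, with correlations of 0.39, 0.149, 0.228 and 0.179 for replicates 1 to 4. All are over 0.1, though so are 3 of the 12 pairs of different numbers (up to 0.261, IL-4 replicate 2 with untreated replicate 3). The number was used as a block in an alternative fit. The labels do not say what it stands for, and p-values reflect only the variation among these samples. The text names all members, their leading isoforms and those averaging at least 1 FPKM in either group. It names the nearest coding loci per side, the 3 loci most like the 2 members with the largest count difference, and genes of the lists. The members and lists were chosen with earlier results of these data known. Some genes of the lists are counted but not reported here by name.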

Additional observations from a re-analysis of the deposited data

Results flagged for a closer look

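Among 50 groups of 4 libraries examined (CPM of tested loci, summed FPKM of genes, FPKM of tested isoforms), 8 had a library far from the other 3, by a gap whose share of the group's range passed Dixon's critical value; chance gives about 1 in 20 groups, and several of the 8 are the same gene read in more than one way. In IL-4 libraries, the Lamtor1 locus had 6.38 CPM in replicate 3, where the others had 5.47 to 5.62 CPM. Summed Lamtor1 FPKM was 55.4 in IL-4 replicate 4, where the others had 48.2 to 49.2, and its reference isoform had 54.8 FPKM there, where the others had 47.7 to 48.6. The upstream Anapc15 isoform TCONS_00071337 had 0.386 FPKM in IL-4 replicate 1, where the others had at most 0.0348 FPKM.

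In untreated libraries, the Folr1 locus had 31.8 CPM in replicate 4, where the others had 30.4 to 30.6 CPM. Summed Inppl1 FPKM was 38.5 in untreated replicate 1, where the others had 30.4 to 30.8, and its leading isoform TCONS_00074890 had 30.9 FPKM, where the others had 23.6 to 24.5. The near Anapc15 isoform TCONS_00071343 had 1.505 FPKM in untreated replicate 3, where the others had at most 0.112 FPKM.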

How the results depend on the processing

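The count of member loci called lower was 4 under every alternative, among them DESeq2, glmTreat and each library left out. The window widened by 50 kb, and all loci in the window whatever their class, gave the same 6 loci. Those settings could not change the count and say nothing on the choice of window. With the replicate block, 7965 loci were called in counts and 6767 isoforms in FPKM, against 7127 and 6712 without it, and 10 member isoforms were called lower; of the member calls, only that of Lamtor1's isoform was lost. With no filter on FPKM, the calls of TCONS_00071339, TCONS_00074892 and the Lamtor1 isoform were lost at the same log2 fold changes (-3.75, -0.98 and -0.19), while 11 member isoforms were called lower, of 59 tested. The FPKM added before the log moved the low isoforms most, and under 0.01 and 1 FPKM added 11 were called lower. Against a fold of 1.5, glmTreat called 2467 loci, with 1 folate gene lower and 2 higher, 0 phosphatase genes lower and 3 higher, and 2 coding loci within 1 Mb lower. At 5 FPKM or more in 4 libraries, 4185 isoforms and 4 member isoforms were called, of 4 members tested. Leaving out 1 library gave 5 to 10 member isoforms called lower, and leaving out both replicate 4 libraries gave 6; without an untreated library, 8 members passed the filter, which asks for 4 libraries. Leaving out 1 library gave 4 to 6 folate genes lower, 4 higher, 2 to 4 phosphatase genes lower and 4 to 6 higher, 7 to 9 coding loci within 1 Mb lower, 6537 to 7696 loci and 5317 to 6517 isoforms in all. The log2 fold change of the Lamtor1 locus ran from -0.12 to 0.04 with 1 library left out, above 0 without untreated replicate 3. Isoform estimates share bases, and counts of the overlapping loci cover few of the annotated exons.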
